A study of Mus musculus with 9 samples.

Results

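The mitochondrial ribosomal protein genes examined here were the 37 genes of a deposited FPKM table whose symbol starts with Mrpl or Mrps followed by a digit, that occur once in the table, and whose mean over the 9 libraries was 1 FPKM or more. They are 37 of 15446 uniquely named genes in the table and 37 of the 6965 genes that met the same mean and were tested. By name, 26 belong to the large subunit (Mrpl) and 11 to the small subunit (Mrps). FPKM is a count of fragments scaled by transcript length and by the library's mapped total. The cells were ROC6, an oral squamous line from mouse, sequenced in 9 RNA libraries. The groups were 3 libraries of cells with a Csmd3 knockout made with guide 2, 3 libraries of cells with a Csmd3 knockout made with guide 1, and 3 libraries of WT control cells without the knockout. The series text speaks of a clone 1 and a clone 2 where the sample titles name guides, and whether all 3 libraries of a guide come from 1 clone is not stated. A property of a guide therefore cannot be told apart from that of a clone. Csmd3 encodes a large transmembrane protein, and the gene was not analysed here, which leaves the knockout labels unchecked.

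The mitochondrial ribosome translates the few messenger RNAs transcribed from mitochondrial DNA, which encode core subunits of the respiratory chain complexes and of the ATP synthase. All of its proteins are encoded in the nucleus, made in the cytosol and imported. The small subunit binds the messenger RNA and decodes it, and the large subunit joins the amino acids and releases the growing peptide through a tunnel at the inner membrane. Some of the proteins have counterparts in the bacterial ribosome and others are specific to mitochondria. The names do not always match the structure: Mrps30 sits in the large subunit, and the product of Mrps36 is a component of the 2-oxoglutarate dehydrogenase complex and not of the ribosome.

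Promoters of many genes of mitochondrial function hold sites for the factors GABP, NRF1 and YY1. The 4 promoters below belong to Mrpl3 and Mrpl45, which stood higher in the guide 2 knockout, and to Mrps18c and Mrps26, which stood lower in both knockouts. All 4 hold a match, and they do not stand for every gene with such a course. They are RefSeq windows of 300 bases on mouse GRCm38.p6, 250 before and 50 after the start of the gene, with capitals marking every match to CCGGAAG (the GABP/ETS core), GCGCA followed by any base and GCGC (NRF1), AAGATGGC (YY1) or CACGTG (the E-box) on either strand. The windows are chr9:105053018-105053317 (Mrpl3), chr11:97315466-97315765 (Mrpl45), chr5:100798509-100798808 (Mrps18c) and chr2:130563507-130563806 (Mrps26), each on the plus strand.
Mrpl3: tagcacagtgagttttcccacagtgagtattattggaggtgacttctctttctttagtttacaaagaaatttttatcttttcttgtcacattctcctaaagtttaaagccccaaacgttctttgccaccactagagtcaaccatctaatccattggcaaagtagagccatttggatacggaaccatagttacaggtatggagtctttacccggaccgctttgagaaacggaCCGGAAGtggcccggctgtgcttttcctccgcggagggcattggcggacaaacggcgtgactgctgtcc
Mrpl45: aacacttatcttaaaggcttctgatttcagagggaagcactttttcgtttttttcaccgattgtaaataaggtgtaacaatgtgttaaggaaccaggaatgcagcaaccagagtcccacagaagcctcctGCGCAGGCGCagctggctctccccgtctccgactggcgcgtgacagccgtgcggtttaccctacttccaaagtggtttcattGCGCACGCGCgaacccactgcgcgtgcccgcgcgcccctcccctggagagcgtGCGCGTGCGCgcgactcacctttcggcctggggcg
Mrps18c: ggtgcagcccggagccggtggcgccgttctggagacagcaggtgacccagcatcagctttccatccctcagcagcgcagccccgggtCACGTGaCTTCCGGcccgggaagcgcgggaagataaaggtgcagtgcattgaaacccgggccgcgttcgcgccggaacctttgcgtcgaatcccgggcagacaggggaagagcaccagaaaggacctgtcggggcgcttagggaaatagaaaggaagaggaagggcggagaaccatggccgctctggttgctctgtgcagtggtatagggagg
Mrps26: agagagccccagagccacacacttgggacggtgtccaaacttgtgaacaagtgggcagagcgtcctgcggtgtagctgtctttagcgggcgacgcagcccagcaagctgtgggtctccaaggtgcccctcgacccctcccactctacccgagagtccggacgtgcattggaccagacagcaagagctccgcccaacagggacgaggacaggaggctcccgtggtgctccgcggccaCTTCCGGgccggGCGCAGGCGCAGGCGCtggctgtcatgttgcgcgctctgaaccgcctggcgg

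The Mrpl3 window held 1 GABP/ETS core and the Mrpl45 window 3 NRF1 matches. The Mrps18c window held an E-box beside a GABP/ETS core on the other strand, and the Mrps26 window a GABP/ETS core and 2 overlapping NRF1 matches. Of the 37 genes, 34 had a RefSeq promoter, and 21 of the 34 held at least 1 of the 4 motifs. The windows of Mrpl24, which also rose with guide 2, and of Mrpl16 and Mrpl41, which also fell in both knockouts, held none. The GABP/ETS core stood in 11 of 34 (32.4%), against 19.96% of the promoters of 4971 tested genes and 9.12% of all 27025 promoters. The NRF1 letters stood in 7 of 34 (20.6%), against 11.7% and 4.78%, and the YY1 letters in 4 of 34 (11.8%), against 4.67% and 2.88%. The E-box stood in 3 of 34 (8.82%), against 10.2% and 7.24%. A match of letters is a description and not a bound site. Of the 34 genes with a promoter, 15 were higher in the guide 2 than in the guide 1 knockout. Of these 15, 6 held the GABP/ETS core, 3 the NRF1 letters, 0 the YY1 letters and 2 the E-box. Of the 34, 8 were lower in both knockouts. Of these 8, 2 held the GABP/ETS core, 2 the NRF1 letters, 1 the YY1 letters and 1 the E-box. These small sets were not tested.

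The FPKM values summed to between 162625 and 168620 per library over uniquely named genes. The depth of the libraries is unknown, since only FPKM values were used. Across genes, log2 values of libraries of the same group correlated between 0.991 and 0.993 and those of different groups between 0.893 and 0.950. Whether the 3 libraries of a group came from separate cultures is not stated, so p-values here rest on a spread among libraries that may be technical. Of the epithelial markers checked, Krt18 averaged 5.01 FPKM in guide 2 cells, 119 in guide 1 cells and 3.70 in control cells, and Krt8 0.0768, 0.524 and 0 FPKM. Krt5, Krt14, Krt6a, Trp63, Epcam and Cdh1 were not analysed here, so the squamous label was not checked against them. Among markers of other cell types, Cd68 of macrophages averaged 2.16, 1.35 and 0.652 FPKM, and Kdr of endothelium 0.0569, 0.667 and 0.00501 FPKM, in the order guide 2, guide 1 and control. Their part in the results was not tested, and the other markers listed were not analysed here.

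In 15441 of the 15446 uniquely named rows, the 2 knockout means were both above or both below that of the control, and this was so for all 37 mitochondrial ribosomal protein genes, with 16 above and 21 below. The authors named the table for differentially expressed genes that the knockouts share, and how its rows were chosen was not given in the sources used here. A shared side is therefore a property of the rows, and nothing is read from it. Likewise, the mitochondrial ribosomal protein genes with a row, and all tested genes whose shares are set beside them, may have been chosen for change. RefSeq lists 78 protein-coding mouse genes with such names, 49 large and 29 small, of which 26 and 11 have a row. The other 41 were not analysed here. Of the 41 rows with such a name, 4 pseudogene rows fell under the mean of 1 FPKM. Just outside stood Mrpl48-ps at 0.703 FPKM, and the lowest gene inside was Mrpl32 at 4.35 FPKM.

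The 37 genes were expressed at moderate levels. Their means over the 9 libraries ran between 4.35 and 49.1 FPKM with a median of 13.7, against a median of 8.50 over all tested genes. The large subunit median was 13.4 FPKM and the small subunit median 17.4 FPKM. Mrpl34 and Mrpl2, counterparts of bacterial large subunit proteins, were the most abundant large subunit genes, and Mrpl33 and Mrpl32 the least. Mrps28 and Mrps18b were the most abundant small subunit genes, and Mrps30 and Mrps9 the least. Summed over the 37 genes, the level was 716, 653 and 630 FPKM in the guide 2 libraries, 636, 600 and 592 in the guide 1 libraries, and 628, 633 and 675 in the control libraries. These sums overlapped between each knockout and the control.

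**Figure D1:**
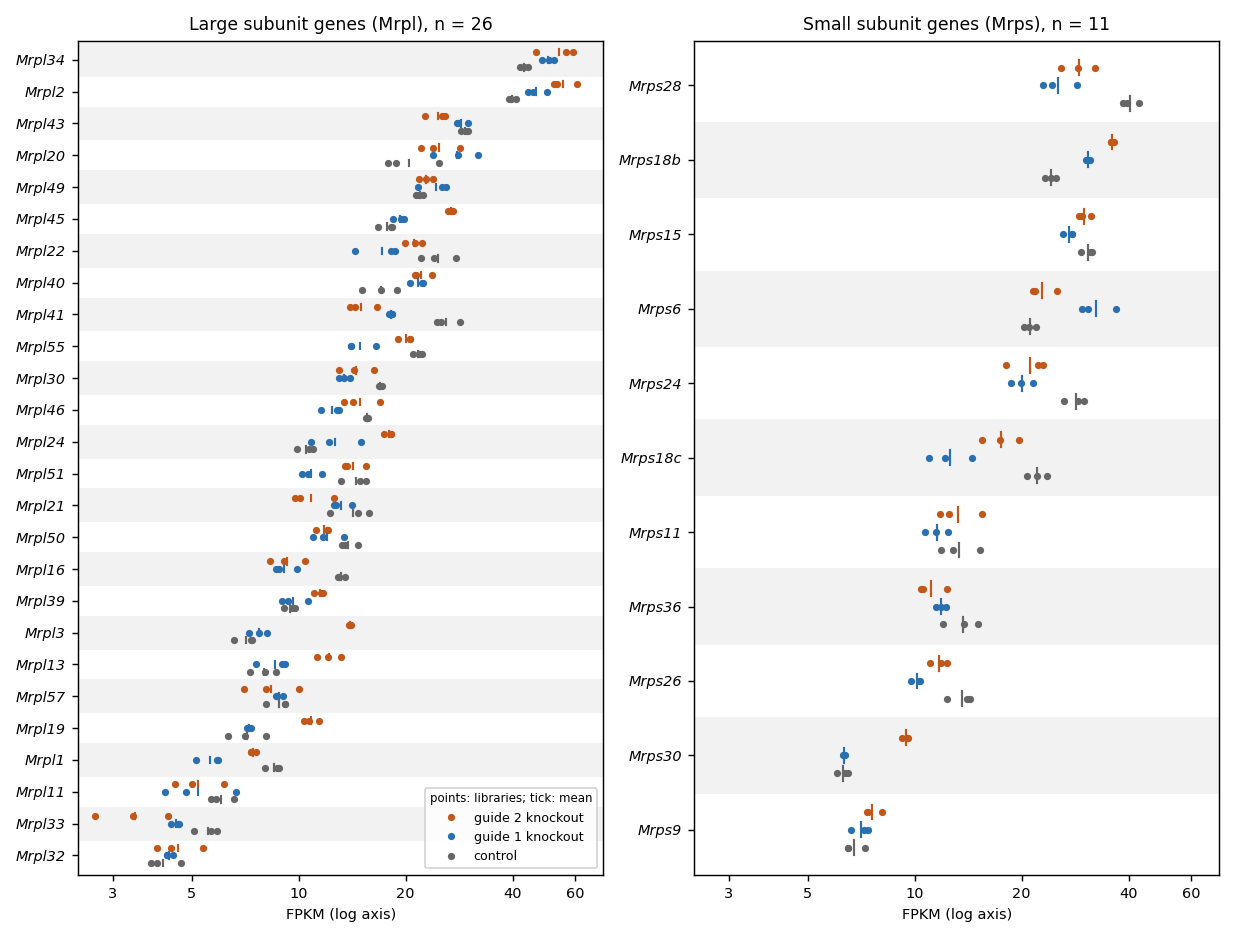
FPKM of each of the 26 large and 11 small subunit genes on a log axis, ordered by mean, with 1 point per library and a tick at the mean of 3 libraries for the guide 2 knockout, the guide 1 knockout and the control. Mrpl3 stands at 13.9 to 14.0 FPKM in the guide 2 libraries, above all 6 others, and Mrps6 at 29.6 to 36.8 FPKM in the guide 1 libraries, above all 6 others.

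Against the control, the mitochondrial ribosomal protein genes were called in both directions in each knockout. Genes were tested with limma on log2(FPKM + 1), a scale on which fold changes of low genes are understated, and a call is a p under 0.05 after Benjamini-Hochberg adjustment over all 6965 genes. With guide 2, 11 of 37 were higher (29.7%, against 31.9% of all tested genes) and 13 lower (35.1%, against 33.5%). With guide 1, 7 were higher (18.9%, against 30.2%) and 14 lower (37.8%, against 37.9%). For the mean of both guides, 13 were higher (35.1%, against 37.8%) and 18 lower (48.6%, against 43.3%). The median log2 fold change of the 37 was -0.03 with guide 2, -0.10 with guide 1 and -0.10 for the mean, against -0.03, -0.04 and -0.08 over all tested genes. The shares called were near those of all tested genes, apart from the lower share called higher with guide 1, which was 10 of 37 (27.0%) after either rescaling of the libraries, against 33.2% of tested genes after quantile normalization and 34.4% after rescaling by trimmed means. With guide 1, 4 genes (10.8%) were higher without control library 1, against 28.4% of tested genes, and 4 without control library 2, against 27.8%. Without guide 2 library 3, 7 (18.9%) were lower with guide 2, against 31.2%.

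Taken gene by gene, 5 were called higher in both knockouts (13.5%, against 22.6% of tested genes) and 9 lower in both (24.3%, against 26.2%). A further 6 were higher and 4 lower with guide 2 alone, 2 higher and 5 lower with guide 1 alone, and 6 were called in neither. The shares of all tested genes called with 1 guide alone or in neither are not given here. Nothing is therefore read from these single-guide counts. Counted by libraries, 5 genes had all 6 knockout libraries above all 3 controls (13.5%, against 24.7% of tested genes) and 10 had all 6 below (27.0%, against 29.0%). Both comparisons share the control libraries, so their agreement is given only as counts.

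**Figure D2:**
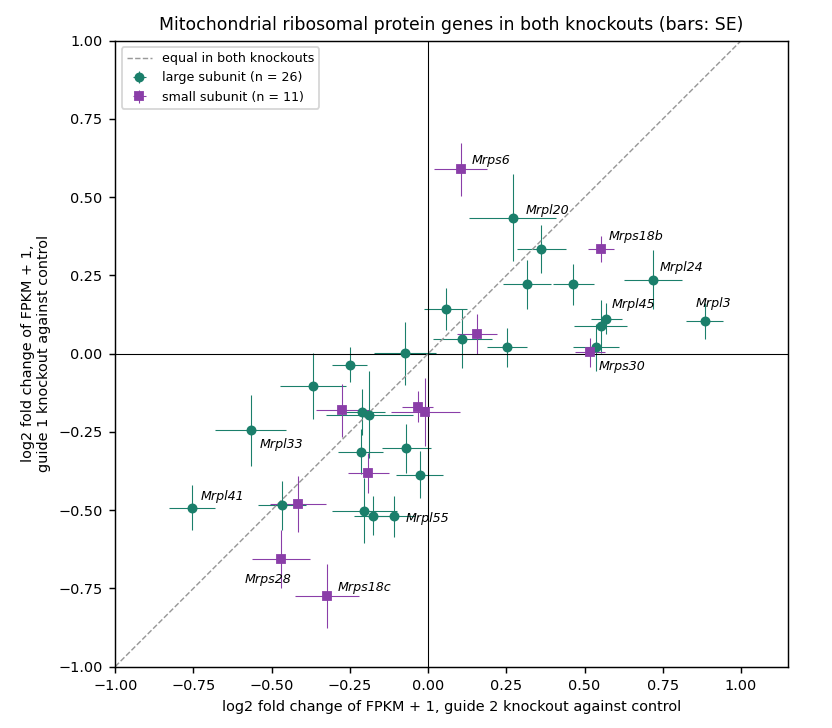
Log2 fold change of FPKM + 1 with guide 2 (horizontal) and guide 1 (vertical) against the control for the 37 genes, circles for the large and squares for the small subunit, with bars of 1 SE and a dashed line of equal change. Mrpl3 lies far to the right at 0.88 with guide 2 and 0.10 with guide 1, and Mrps18c near the bottom at -0.32 and -0.77.

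The largest increases with guide 2 were in Mrpl3 and Mrpl24, large subunit genes with bacterial counterparts. Mrpl3, the counterpart of bacterial L3 near the peptidyl transferase centre, stood at 14.0, 13.9 and 13.9 FPKM with guide 2, at 7.75, 7.25 and 8.12 with guide 1, and at 7.35, 6.58 and 7.39 in the control. The guide 2 libraries lay far above the 6 others, and the guide 1 and control libraries overlapped. Mrpl3 rose with guide 2 by a log2 fold change of 0.88 (SE 0.0579, limma adjusted p = 4.16e-07) and had 0.10 with guide 1 (limma adjusted p = 0.138). Mrpl24, whose bacterial counterpart lies near the tunnel exit, had 18.2, 18.2 and 17.3 FPKM with guide 2, 12.2, 14.9 and 10.8 with guide 1, and 10.96, 10.7 and 9.87 in the control. Guide 2 stood apart from both other groups, while 1 guide 1 library lay within the control range. The log2 fold change was 0.72 with guide 2 (SE 0.0939, limma adjusted p = 6.99e-05) and 0.24 with guide 1 (limma adjusted p = 0.0449), and the guide 1 call was lost under 11 of 17 alternative settings, with adjusted p up to 0.150. Mrpl19, the counterpart of L19 at the face that meets the small subunit, had 11.4, 10.7 and 10.3 FPKM with guide 2, 7.36, 7.19 and 7.17 with guide 1, and 6.33, 7.07 and 8.07 in the control. Guide 1 lay within the control range. Mrpl19 rose with guide 2 by 0.54 (SE 0.0748, limma adjusted p = 0.000113).

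Mrpl45, a protein specific to mitochondria that lies at the tunnel exit and faces the inner membrane, had 27.1, 26.9 and 26.3 FPKM with guide 2, 18.5, 19.8 and 19.4 with guide 1, and 16.7, 18.3 and 18.1 in the control. All guide 2 libraries lay above the others, and the log2 fold change was 0.57 with guide 2 (SE 0.0495, limma adjusted p = 3.39e-06) and 0.11 with guide 1 (limma adjusted p = 0.0681). Of the 4 genes around the exit tunnel that were tested, Mrpl24, Mrpl39 and Mrpl45 rose with guide 2 and Mrpl22 did not pass the test. Of the 2 tested genes of the central protuberance, the ridge that crowns the large subunit, Mrpl40 rose in both knockouts and Mrpl46 fell with guide 1. The single tested gene of the stalk base, Mrpl11, was called in no comparison.

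Mrpl40, Mrpl2 and Mrpl34 rose in both knockouts, and Mrpl20 with guide 1. Mrpl40, specific to mitochondria, had 23.7, 21.3 and 21.3 FPKM with guide 2, 22.3, 22.2 and 20.5 with guide 1, and 15.1, 17.1 and 18.9 in the control. All 6 knockout libraries lay above all controls, and the log2 fold change was 0.36 with guide 2 and 0.33 with guide 1 (SE 0.0777, limma adjusted p = 0.00205 and 0.00303). Mrpl2, the counterpart of L2, had 60.8, 53.4 and 52.2 FPKM with guide 2, 45.8, 49.9 and 44.3 with guide 1, and 39.0, 41.0 and 39.6 in the control. The groups did not overlap, and the log2 fold change was 0.46 with guide 2 (limma adjusted p = 0.000117) and 0.22 with guide 1 (limma adjusted p = 0.0116). Mrpl34, the counterpart of L34, had 58.9, 56.6 and 46.5 FPKM with guide 2, 52.2, 50.7 and 48.2 with guide 1, and 42.9, 42.1 and 44.0 in the control. Every knockout library lay above the controls, and the log2 fold change was 0.32 with guide 2 and 0.22 with guide 1 (limma adjusted p = 0.00471 and 0.0269). Its guide 1 call was lost under 5 of 17 settings, with adjusted p up to 0.0821. Mrpl20, the counterpart of L20, had 28.4, 23.9 and 22.0 FPKM with guide 2, 31.9, 28.0 and 23.9 with guide 1, and 18.8, 17.8 and 24.8 in the control. Control library 3 lay inside the knockout range, and the log2 fold change of 0.43 with guide 1 (limma adjusted p = 0.0169) was lost under 4 of 17 settings, with adjusted p up to 0.0675. With guide 2 it was 0.27 and not called (limma adjusted p = 0.110).

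Large subunit genes also fell. Mrpl41, specific to mitochondria, had 16.6, 14.4 and 14.0 FPKM with guide 2, 17.9, 18.3 and 18.3 with guide 1, and 24.5, 25.1 and 28.4 in the control. The 3 groups did not overlap, and Mrpl41 fell by 0.75 on the log2 scale with guide 2 (SE 0.0725, limma adjusted p = 7.21e-06) and by 0.49 with guide 1 (SE 0.0725, limma adjusted p = 0.000141). Mrpl16, the counterpart of L16, had 10.4, 9.10 and 8.28 FPKM with guide 2, 9.86, 8.64 and 8.82 with guide 1, and 13.0, 12.9 and 13.5 in the control. Both knockouts lay below the control and overlapped each other, with log2 fold changes of -0.47 and -0.48 (limma adjusted p = 0.000376 and 0.000246). Mrpl1, the counterpart of L1 of the mobile stalk beside the exit site for tRNA, had 7.35, 7.57 and 7.34 FPKM with guide 2, 5.88, 5.92 and 5.13 with guide 1, and 8.71, 8.02 and 8.79 in the control. Its guide 1 libraries were lowest, with a log2 fold change of -0.52 (limma adjusted p = 2.85e-05), and that of -0.17 with guide 2 (limma adjusted p = 0.0285) was lost under 5 of 17 settings, with adjusted p up to 0.0831.

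Mrpl55 and Mrpl33 each fell with 1 guide. Mrpl55, the counterpart of L31, had 20.5, 19.0 and 20.6 FPKM with guide 2, 16.5, 14.1 and 14.0 with guide 1, and 21.8, 20.9 and 22.3 in the control, so that guide 1 lay below both other groups. Mrpl55 fell by 0.52 with guide 1 on the log2 scale (SE 0.0659, limma adjusted p = 4.66e-05) and had -0.11 with guide 2 (limma adjusted p = 0.172). Mrpl33, the counterpart of L33 and a low gene, had 4.29, 3.43 and 2.66 FPKM with guide 2, 4.59, 4.59 and 4.36 with guide 1, and 5.07, 5.65 and 5.90 in the control. The guide 2 libraries were lowest and scattered most, with a log2 fold change of -0.57 (SE 0.113, limma adjusted p = 0.00133) and -0.24 with guide 1 (limma adjusted p = 0.0788). Mrpl43, specific to mitochondria, had 25.9, 22.7 and 25.2 FPKM with guide 2, 28.0, 28.1 and 29.9 with guide 1, and 28.7, 29.7 and 29.9 in the control. Guide 2 lay below both other groups (-0.25, limma adjusted p = 0.00249). Mrpl32, the counterpart of L32, had 5.40, 3.98 and 4.37 FPKM with guide 2, 4.42, 4.27 and 4.27 with guide 1, and 3.98, 3.83 and 4.67 in the control, and passed no test.

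The remaining large subunit genes followed no single course. With guide 2, Mrpl13 (0.55) and Mrpl39 (0.25) rose and Mrpl21 (-0.37), Mrpl30 (-0.21) and Mrpl50 (-0.21) fell. With guide 1, Mrpl22 (-0.50), Mrpl51 (-0.39), Mrpl30 (-0.31), Mrpl46 (-0.30) and Mrpl50 (-0.19) fell. The calls of Mrpl30 with guide 2 and of Mrpl50 with both guides were lost under some settings, with adjusted p up to 0.0896 for Mrpl30, and up to 0.0902 with guide 2 and 0.160 with guide 1 for Mrpl50. Mrpl11, Mrpl49 and Mrpl57 passed no test against the control.

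In the small subunit, most called genes were lower in the knockouts, and 1 rose in both. Mrps18c, the counterpart of bacterial S18, had 19.6, 17.4 and 15.5 FPKM with guide 2, 14.5, 12.2 and 10.9995 with guide 1, and 20.7, 22.1 and 23.5 in the control. The groups did not overlap, with guide 1 lowest. Mrps18c fell by 0.77 with guide 1 on the log2 scale (SE 0.103, limma adjusted p = 6.66e-05) and by 0.32 with guide 2 (limma adjusted p = 0.018). The guide 2 call was lost under 3 of 17 settings, with adjusted p up to 0.0726. Mrps18b, a paralog of Mrps18c that occupies another place in the small subunit, went the other way. It had 36.3, 35.6 and 35.7 FPKM with guide 2, 31.2, 30.4 and 30.5 with guide 1, and 24.1, 23.3 and 25.0 in the control. The 3 groups were well separated, and Mrps18b rose by 0.55 with guide 2 and by 0.34 with guide 1 (SE 0.0415, limma adjusted p = 1.11e-06 and 3.87e-05).

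Mrps28, the most abundant small subunit gene, had 32.2, 28.8 and 25.8 FPKM with guide 2, 28.6, 23.0 and 24.3 with guide 1, and 38.6, 39.6 and 42.8 in the control. Both knockouts lay below every control library, and Mrps28 fell by 0.47 with guide 2 and by 0.66 with guide 1 on the log2 scale (SE 0.0924, limma adjusted p = 0.00118 and 0.000102). Mrps24, the counterpart of S3 at the entry of the messenger RNA, had 23.0, 22.2 and 18.1 FPKM with guide 2, 18.7, 19.9 and 21.5 with guide 1, and 28.9, 26.2 and 29.95 in the control. Both knockouts lay below the control and overlapped each other, and Mrps24 fell by 0.42 with guide 2 and by 0.48 with guide 1 on the log2 scale (limma adjusted p = 0.00219 and 0.000789). Mrps26, specific to mitochondria, had 12.3, 11.9 and 11.1 FPKM with guide 2, 10.4, 10.3 and 9.80 with guide 1, and 14.3, 12.3 and 14.1 in the control. Guide 1 lay below both other groups, and guide 2 library 1 lay just below the lowest control. Mrps26 fell by 0.38 with guide 1 (limma adjusted p = 0.000362), and its value of -0.19 with guide 2 (limma adjusted p = 0.0236) was lost under 3 of 17 settings, with adjusted p up to 0.0902.

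Mrps6, the counterpart of S6, was the small subunit gene that rose with guide 1 and did not pass the test with guide 2. It had 25.1, 21.8 and 21.5 FPKM with guide 2, 36.8, 30.7 and 29.6 with guide 1, and 21.9, 20.3 and 21.0 in the control. The guide 1 libraries lay above the 6 others, and the log2 fold change was 0.59 with guide 1 (SE 0.0848, limma adjusted p = 0.000119) and 0.10 with guide 2 (limma adjusted p = 0.303). Mrps9, the counterpart of S9, had 8.08, 7.32 and 7.40 FPKM with guide 2, 7.21, 6.62 and 7.40 with guide 1, and 6.48, 7.23 and 6.47 in the control, and was not called. Mrps15 fell with guide 1 by 0.17 (limma adjusted p = 0.0104), and Mrps11 passed no test.

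The small subunit names that do not match the small subunit in structure gave different courses. Mrps30 had 9.52, 9.23 and 9.58 FPKM with guide 2, 6.31, 6.36 and 6.28 with guide 1, and 6.04, 6.35 and 6.496 in the control. The guide 1 libraries lay within the control range and the guide 2 libraries above both, a log2 fold change of 0.52 with guide 2 (SE 0.0472, limma adjusted p = 4.88e-06). Mrps36 had 12.3, 10.5 and 10.4 FPKM with guide 2, 12.2, 11.5 and 11.9 with guide 1, and 12.1, 15.1 and 13.8 in the control. Its log2 fold change was -0.27 with guide 2 (limma adjusted p = 0.015), a call lost under 3 of 17 settings with adjusted p up to 0.0623, and -0.18 with guide 1 (limma adjusted p = 0.0787).

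Set side by side, the medians of the large and small subunit genes lay furthest apart with guide 1. The shares called higher lay furthest apart with guide 2. With guide 2, 9 of 26 large subunit genes were higher (34.6%) and 8 lower (30.8%), and 2 of 11 small subunit genes were higher (18.2%) and 5 lower (45.5%). With guide 1, 5 large subunit genes were higher (19.2%) and 9 lower (34.6%), and 2 small subunit genes were higher and 5 lower. Over all tested genes, 31.9% were higher and 33.5% lower with guide 2, and 30.2% and 37.9% with guide 1. The median log2 fold change with guide 2 was -0.05 over large and -0.03 over small subunit genes. With guide 1 it was -0.02 over large and -0.18 over small subunit genes, a difference of 0.16 that had a range of 0.144 to 0.206 when each library was left out. For the mean of both guides the medians were -0.09 and -0.10. Over all tested genes the medians were -0.03 with guide 2, -0.04 with guide 1 and -0.08 for the mean. With Mrps30 counted in the large subunit and Mrps36 left out, the difference with guide 1 was 0.19, and with guide 2 it was 0.01. Members are not replicates, so these medians carry no test.

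Library by library, the small subunit median lay below the large subunit median in 5 of the 6 knockout libraries. The same order held in control libraries 1 and 2. Taken as log2 values minus the control mean, the large subunit medians were 0.10, -0.11 and -0.08 in the guide 2 libraries, 0.04, -0.07 and -0.04 in the guide 1 libraries, and -0.04, -0.02 and 0.04 in the control libraries. The small subunit medians were -0.05, -0.16 and -0.08 with guide 2, -0.14, -0.23 and -0.18 with guide 1, and -0.05, -0.04 and 0.05 in the control. Library 1 of each knockout was the highest of its group for the 37 genes, at 0.09 with guide 2 and -0.01 with guide 1, while the medians over all tested genes stayed between -0.06 and 0.02 in all 9 libraries. Without guide 2 library 1, the guide 2 medians were -0.10 over large and -0.12 over small subunit genes.

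**Figure D3:**
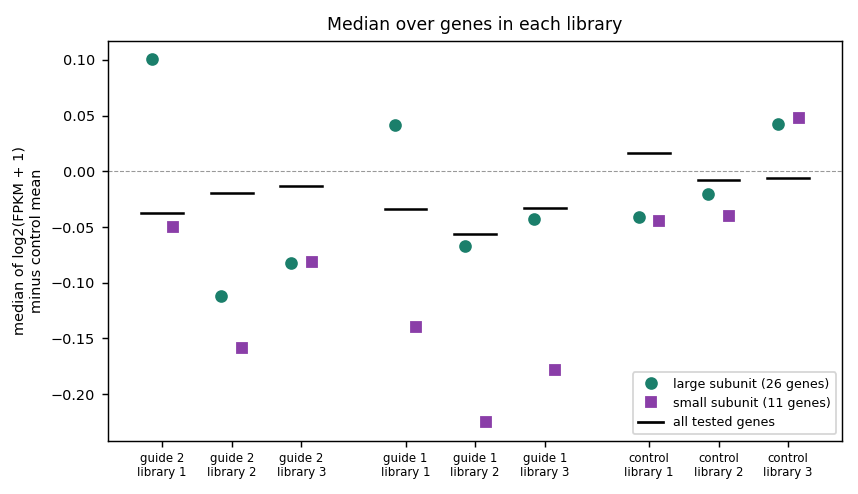
Median over genes of log2(FPKM + 1) minus the control mean, in each of the 9 libraries, for the 26 large subunit genes (circles), the 11 small subunit genes (squares) and all tested genes (bars). The guide 1 libraries have small subunit medians of -0.14, -0.23 and -0.18, below their large subunit medians of 0.04, -0.07 and -0.04.

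The knockouts were also compared with each other. This comparison takes no control library into the difference, and 17 of the 37 genes were higher in the guide 2 than in the guide 1 knockout (45.9%, against 31.2% of tested genes) and 4 lower (10.8%, against 23.3%). The median difference was 0.14 on the log2 scale, against 0.04 over all tested genes. The 17 held 12 of 26 large and 5 of 11 small subunit genes, and the 4 held 3 large and 1 small. The count of higher genes was 16 after quantile normalization (43.2%, against 29.2% of tested genes) and 13 after rescaling by trimmed means (35.1%, against 28.6%). It was also 13 without guide 2 library 1 (35.1%, against 30.1%), where the median over large subunit genes was 0.02 in place of 0.10.

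The largest difference was in Mrpl3, at 0.78 (SE 0.0579, limma adjusted p = 1.82e-06). Next came Mrpl19 at 0.52 (limma adjusted p = 0.000209), Mrps30 at 0.51 (limma adjusted p = 8.31e-06), Mrpl24 at 0.48 (limma adjusted p = 0.00147), Mrpl13 at 0.46 (limma adjusted p = 0.000979) and Mrpl45 at 0.46 (limma adjusted p = 2.6e-05). All 6 genes called higher with guide 2 alone differed between the knockouts, as did all 5 called lower with guide 1 alone. These classes were formed from calls in the same libraries, so such differences are partly built in and are no further evidence. Mrps18c (0.45), Mrpl55 (0.41), Mrpl51 (0.36) and Mrpl1 (0.34) were also higher with guide 2 than with guide 1, with means below the control in both knockouts. In the other direction, Mrps6 was lower in the guide 2 knockout by 0.49 (SE 0.0848, limma adjusted p = 0.000725), followed by Mrpl33 at -0.32 (limma adjusted p = 0.0343), Mrpl41 at -0.26 (limma adjusted p = 0.0109) and Mrpl43 at -0.22 (limma adjusted p = 0.00771). The Mrpl33 call was lost under 7 of 16 settings, with adjusted p up to 0.111. Of the 21 genes called, 16 kept the call under every setting tried, and Mrpl22, Mrpl33, Mrpl46, Mrps15 and Mrps26 did not.

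**Figure D4:**
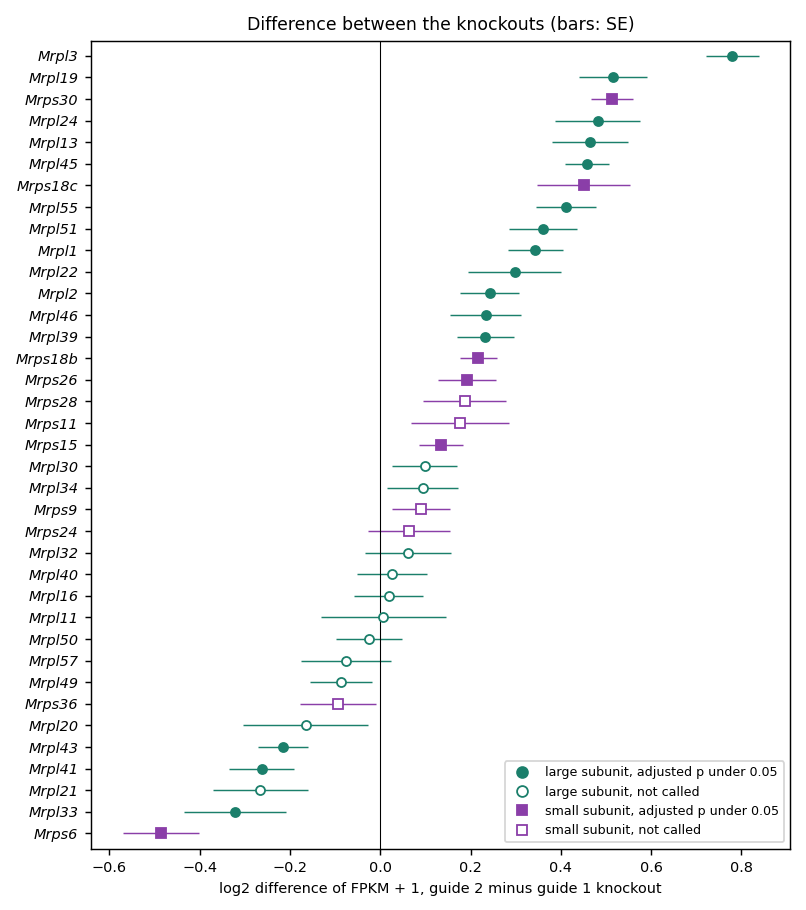
Log2 difference of FPKM + 1 between the guide 2 and the guide 1 knockout for the 37 genes in order of size, with bars of 1 SE, filled points for an adjusted p under 0.05, circles for the large and squares for the small subunit. Mrpl3 leads at 0.78 and Mrps6 is lowest at -0.49, with 17 filled points right of 0 and 4 left of it.

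By structural group, all 4 tested genes around the exit tunnel were higher in the guide 2 than in the guide 1 knockout (Mrpl24 0.48, Mrpl45 0.46, Mrpl22 0.30 and Mrpl39 0.23), with the Mrpl22 call lost under 5 of 17 settings. Over all tested genes, 31.2% were higher and 23.3% lower in this comparison, with a median of 0.04. Among 16 large subunit genes with a bacterial counterpart, 8 were higher and 1 lower, with a median of 0.17. Among 11 specific to mitochondria, 5 were higher and 2 lower, with a median of 0.03. Of 7 small subunit genes with a bacterial counterpart, 2 were higher and 1 lower, and both tested ones specific to mitochondria were higher. The groups are small and were not tested against each other.

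Across the 37 genes, the difference between the knockouts had a Spearman correlation of 0.389 with the median length of the coding transcripts in the GENCODE annotation. The correlation was 0.362 for guide 2 and 0.0984 for guide 1 against the control. These values are descriptions over genes of the same 9 libraries, which share their length scaling, and its part in the results was not tested. The transcripts ran between 478 and 5000 bases with a median of 1029. The 37 genes lie on 16 chromosomes.

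Several of the genes share exonic bases with a neighbour, and whether the deposited values were counted by strand is not given in the sources used here. In the annotation, 6 had exons overlapping another gene on the same strand and 12 on the other strand. Mrps6 overlaps Slc5a3, which encodes a myo-inositol transporter, on the same strand. Mean FPKM of Slc5a3 was 3.35 (guide 2), 4.12 (guide 1) and 2.15 (control), and it rose in both knockouts (0.47 and 0.70 on the log2 scale, limma adjusted p = 0.000306 and 1.33e-05). Mrpl13 overlaps Mtbp, which encodes an MDM2-binding protein, on the other strand. Mean FPKM of Mtbp was 13.1 (guide 2), 8.33 (guide 1) and 6.98 (control), and it rose by 0.82 and 0.22 (limma adjusted p = 4.52e-07 and 0.00388), beside 0.55 and 0.09 for Mrpl13. Mrps24 overlaps Urgcp on the same strand, with means of 7.86 FPKM (guide 2), 8.31 (guide 1) and 10.1 (control), and Urgcp fell by 0.32 and 0.25 (limma adjusted p = 0.000124 and 0.000612). On the other strand, Mrpl19 overlaps Gcfc2, Mrpl43 overlaps Twnk and Mrpl21 overlaps Ighmbp2. Gcfc2 had 0.21 with guide 2 and 0.25 with guide 1 (limma adjusted p = 0.0508 and 0.0281), beside 0.54 and 0.02 for Mrpl19. Twnk had 0.08 and 0.14, not called, beside -0.25 and -0.04 for Mrpl43. Ighmbp2 had -0.03 and -0.0031, not called, beside -0.37 and -0.10 for Mrpl21. The division of reads in all these pairs is uncertain.

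Mrpl46 and Mrps11, a large and a small subunit gene, overlap on opposite strands, and their RefSeq promoter windows share 141 bases. Mrpl46 had 16.9, 13.4 and 14.2 FPKM with guide 2, 11.5, 13.0 and 12.8 with guide 1, and 15.6, 15.4 and 15.6 in the control. Mrps11 had 15.5, 11.7 and 12.4 FPKM with guide 2, 12.4, 11.5 and 10.7 with guide 1, and 11.8, 12.8 and 15.2 in the control. In both genes guide 2 library 1 was the highest of its group. Mrpl46 fell with guide 1 by 0.30 (limma adjusted p = 0.00561), and Mrps11 had -0.19 (limma adjusted p = 0.155). In all, 11 of the 37 genes have a protein-coding partner on the other strand that starts within 300 bases, and 6 of these partners were tested. Mitd1 stood beside Mrpl30 at -0.43 with guide 1 (limma adjusted p = 0.000185) and -0.05 with guide 2, and Hira beside Mrpl40 at 0.28 with guide 1 (limma adjusted p = 0.000496) and 0.01 with guide 2. Klc4, beside Mrpl2, had 0.67 with guide 1 (limma adjusted p = 0.00107) and 0.11 with guide 2, while Psma2 beside Mrpl32 and Ighmbp2 beside Mrpl21 passed no test. Ska3, beside Mrpl57, fell by 0.17 with guide 1 (limma adjusted p = 0.0239) and had -0.04 with guide 2.

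Other genes of mitochondrial translation gave counts in both directions for the mean of both guides, where 37.8% of all tested genes were higher and 43.3% lower, with a median of -0.08. Of the mitochondrial ribosome subunits under other names, both tested of 5 listed rose: Dap3 had 12.1 ± 0.897 FPKM in guide 2 cells, 10.1 ± 0.434 in guide 1 cells and 8.32 ± 0.301 in control cells (SD, n = 3 each; limma adjusted p for the mean = 0.000101), and Aurkaip1 had 28.5 ± 1.24, 30.2 ± 1.63 and 23.5 ± 0.395 FPKM (limma adjusted p = 0.000119). Of 7 tested translation factors of 13 listed, 1 rose and 5 fell, with a median of -0.37. The 1 was Pdf, the deformylase that removes the formyl group from the first methionine, with 7.76 ± 0.368 FPKM in guide 2 cells, 5.94 ± 1.17 in guide 1 cells and 3.43 ± 0.105 in control cells (SD, n = 3 each; limma adjusted p = 1.22e-05). Mtrfr, a factor that rescues stalled ribosomes, fell, with 6.33 ± 0.0770, 4.99 ± 0.378 and 8.14 ± 0.160 FPKM (limma adjusted p = 1.05e-05). The 5 that fell were Mtrfr, Mtif3, Mtif2, Guf1 and Mrrf. With guide 1, 1 rose and 5 fell (median -0.52), against 30.2% and 37.9% of all tested genes. With guide 2, 1 rose and 3 fell (median -0.15), against 31.9% and 33.5%, and Mtif2 and Mrrf were not called. All 7 had values above 0 in the guide 2 against guide 1 comparison, and 4 were called higher, against 31.2% of all tested genes.

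Of 13 tested assembly factors of 26 listed, 4 rose and 3 fell. This and the counts below are for the mean of both guides, where 37.8% of all tested genes were higher and 43.3% lower. The 4 that rose were Dhx30, Mrm3, Eral1 and Ngrn, at 0.73, 0.53, 0.39 and 0.30 with guide 2. With guide 1, Ngrn rose by 0.24, while Dhx30, Mrm3 and Eral1 had 0.09, 0.06 and 0.01 and were not called. Malsu1, which acts in large subunit assembly, fell, with 7.74 ± 0.307 FPKM in guide 2 cells, 5.42 ± 0.496 in guide 1 cells and 9.57 ± 0.623 in control cells (SD, n = 3 each; limma adjusted p = 2.85e-05). Mpv17l2 fell, with 21.5 ± 2.81, 22.8 ± 1.12 and 31.4 ± 0.564 FPKM (limma adjusted p = 8.92e-05). Of 7 tested genes of mitochondrial transcription and RNA processing among 13 listed, 3 rose and 1 fell. Lrpprc, which stabilises mitochondrial messenger RNAs, rose, with 17.4 ± 0.351 FPKM in guide 2 cells, 19.4 ± 0.223 in guide 1 cells and 13.9 ± 1.14 in control cells (limma adjusted p = 5.16e-05). Tefm, the elongation factor of the mitochondrial polymerase, rose for the mean of both guides, by 0.29 (limma adjusted p = 0.00484), with 0.47 for guide 2 and 0.11 for guide 1. Of 6 tested tRNA synthetases of 20 listed, 2 rose and 3 fell, led by Aars2 (0.40, limma adjusted p = 5.7e-05) and Iars2 (-0.30, limma adjusted p = 9.86e-05). Of 4 tested regulators of 9 listed, 1 rose and 2 fell. Myc rose, with 58.9 ± 3.67 FPKM in guide 2 cells, 51.7 ± 2.35 in guide 1 cells and 40.9 ± 2.98 in control cells (limma adjusted p = 6.47e-05). Ppargc1a, a coactivator that drives mitochondrial biogenesis, fell, with 0.420 ± 0.0868, 1.72 ± 0.235 and 3.39 ± 0.299 FPKM (limma adjusted p = 4.05e-07). Nrf1 was the other regulator that fell for the mean, by 0.14 (limma adjusted p = 0.0137). It had -0.22 with guide 1 (limma adjusted p = 0.00298) and -0.06 with guide 2 (limma adjusted p = 0.315).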

How the data were processed

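Poly(A) RNA libraries were made with a stranded kit and read from both ends, per the labels' protocols. Per the file headers, the authors deposited FPKM in each library for the genes with a row, and the table does not hold every gene. HISAT2, StringTie, cutadapt and FastQC are listed in the submitters' processing notes. The build, annotation, versions and depth behind the values were not given in the sources used here. Of 15620 rows, 174 that share 62 symbols were left out, and 8481 of the 15446 others had a mean under 1 FPKM. The number of per-sample columns not mapped was 0.

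The 9 libraries entered 1 model of log2(FPKM + 1) in limma 3.58.1 (R 4.3.3) with a trended prior variance and Benjamini-Hochberg adjustment over 6965 genes. The test was checked on simulated data. SDs are those of 3 libraries, and SEs come from the model. Tables, sequences and figures were handled with Python 3.11.15, pandas 2.3.3, SciPy 1.17.1 and matplotlib 3.10.9. The genes, lists and tests were chosen with earlier results of these data known. Named genes were the 4 largest calls in each direction of each comparison, the 2 most and 2 least abundant of each subunit, genes whose name and structure differ, and the 2 largest calls of each other list. Others were named after their values were seen: the remaining calls, the overlapping and neighbouring genes, and the members of short counts. Exon overlaps and lengths came from GENCODE vM21 by symbol, and promoters from RefSeq on GRCm38.p6. Alternatives were another pseudocount, other filters, quantile and trimmed-mean scaling, a constant prior variance, a replicate block, a fit of the compared groups alone, and leaving out each library.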

Additional observations from a re-analysis of the deposited data

Results flagged for a closer look

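The effect against the control differed between the knockouts, by the limma test of guide 2 against guide 1 (Benjamini-Hochberg over 6965 genes), in these 8 genes, the 4 with the largest difference in each direction among the 37. The difference, guide 2 minus guide 1 on the log2 scale, was 0.78 for Mrpl3 (adjusted p = 1.82e-06), 0.52 for Mrpl19 (0.000209), 0.51 for Mrps30 (8.31e-06) and 0.48 for Mrpl24 (0.00147). It was -0.49 for Mrps6 (0.000725), -0.32 for Mrpl33 (0.0343), -0.26 for Mrpl41 (0.0109) and -0.22 for Mrpl43 (0.00771). In each of the 8 genes, the 3 libraries of one knockout lay beyond the 3 libraries of the other. The 8 were picked for large differences between these same libraries, so this separation is no further evidence. Groups of 3 libraries were too small for a search for outlying samples.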

How the results depend on the processing

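Calls among the 37 genes that were kept under every alternative numbered 18 of 24 with guide 2 and 17 of 21 with guide 1. For the mean of both guides they were 22 of 31, and between the knockouts 16 of 21. The share of calls kept over all tested genes is not given here. The count of genes higher with guide 1 was 4 with no filter on low values (10.8%, against 17.2% of 15446 tested genes). In the main fit it was 7 (18.9%, against 30.2%). With no filter, 13 were lower with guide 1 (35.1%, against 20.1%). The large minus small subunit median with guide 1 was 0.187 after quantile normalization, and between the knockouts it was -0.0113 with a filter of 5 FPKM. Leaving out each library gave 11 to 12 higher and 7 to 14 lower with guide 2 (7 without guide 2 library 3), 4 to 7 higher and 13 to 15 lower with guide 1 (4 without control library 1 and also without control library 2), 11 to 14 and 13 to 17 for the mean, and 13 to 18 and 3 to 5 between the knockouts. Of all tested genes, leaving out each library gave 29.3% to 31.6% higher and 30.5% to 33.2% lower with guide 2. It gave 27.7% to 30.8% and 35.1% to 38.2% with guide 1, and 34.1% to 37.8% and 39.7% to 42.8% for the mean. Between the knockouts it gave 26.9% to 31.9% and 20.7% to 23.9%. The large minus small median then ran between -0.014 and 0.059 with guide 2, 0.144 and 0.206 with guide 1, 0.012 and 0.056 for the mean, and -0.086 and -0.026 between the knockouts. Values near 0 changed sign. With guide 1, Mrpl43 had 0.0125 after quantile normalization and 0.00865 after trimmed-mean rescaling. Leaving out libraries, Mrpl19 ran between -0.0545 and 0.0999 and Mrps30 between -0.0211 and 0.0238. Between the knockouts, Mrpl16 had -0.0211 after quantile normalization and -0.00954 after trimmed-mean rescaling, and Mrpl40 -0.00106 after trimmed-mean rescaling. Leaving out libraries, Mrpl16 ran between -0.0603 and 0.0886, Mrpl40 between -0.0218 and 0.0516, and Mrpl32 between -0.0406 and 0.139. Their cause was not tested. With the replicate number as a block, 11 were higher and 13 lower with guide 2, 7 and 13 with guide 1, 13 and 17 for the mean, and 17 and 4 between the knockouts. Of all tested genes, the block gave 32.0% higher and 33.5% lower with guide 2, and 30.4% and 38.0% with guide 1. It gave 37.8% and 43.3% for the mean, and 31.0% and 23.3% between the knockouts. What same-numbered libraries share beyond the number is not stated. Their deviations correlated between -0.107 and 0.245, over 0.1 in 2 of 9 pairs. Both were pairs of guide 1 with guide 2, at 0.245 for library 1 and 0.210 for library 3, while library 2 had 0.0219. Guide 1 library 1 with guide 2 library 3 had -0.204, and guide 1 library 3 with guide 2 library 1 had -0.234. Control library 3 with guide 2 library 1, of unlike number, had 0.163. A factor shared by number was not tested.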
